A study of Mus musculus with 6 samples.

Results

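The messenger RNAs of 7 genes of T cell costimulation were followed in naive CD4+ T cells activated for 6 h with or without the chemokine CCL19. They are 5 receptors of the tumour necrosis factor (TNF) receptor family, Tnfrsf4, Tnfrsf9, Tnfrsf18, Cd27 and Tnfrsf1b, the CD28-family receptor Icos, and Traf1, an adaptor that docks to TNF receptors inside the cell. The genes were chosen by symbol, with earlier results of these data known. All 7 were found among the 24470 genes of the deposited count table and among the 11666 that had enough counts to be tested.

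Naive helper T cells were purified magnetically (MACS) from spleens and skin-draining lymph nodes. The donors were male C57BL/6J mice. All samples received plate-bound antibodies against CD3, through which the T cell receptor signals, and against CD28, the receptor that gives the first costimulatory signal (coating at 1 µg/mL, 200 µL of medium). In the CCL19 group, with 3 libraries, recombinant mouse CCL19 was added, a ligand of the receptor CCR7. In the no-CCL19 group, labelled NoCKN, with 3 libraries, it was left out. No unstimulated library is part of the comparison, so the values describe cells under stimulation in both groups, and the sources used here state neither the CCL19 dose nor the age or number of mice. Separate animals or cultures are not stated for the replicates. The p-values therefore reflect only how far these samples spread, and that spread may be technical.

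TNF receptors of this family are bound by trimeric ligands on neighbouring cells, mostly antigen-presenting cells, and recruit TRAF proteins to their cytoplasmic tails. TRAF proteins with cIAP ubiquitin ligases then switch on the classical and alternative NF-kB pathways, which promote survival, division and cytokine production. CD27 is already displayed by naive T cells, whereas OX40 (Tnfrsf4), CD137 (Tnfrsf9), GITR (Tnfrsf18) and TNFR2 (Tnfrsf1b) increase after T cell receptor stimulation, and regulatory T cells display several of them at rest. ICOS has no TRAF-binding tail and instead recruits phosphoinositide 3-kinase (PI3K).

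In the annotation of the deposited table (mm10), 4 of the 7 genes lie on chromosome 4. Tnfrsf1b (NCBI Gene 21938) spans chr4:145212368-145246870 on the minus strand and Tnfrsf9 (NCBI Gene 21942) chr4:150920155-150946102 on the plus strand. Tnfrsf4 (NCBI Gene 22163) at chr4:156013695-156016589 and Tnfrsf18 (NCBI Gene 21936) at chr4:156026342-156028891 are neighbours on the plus strand, 9.75 kb apart. Icos (NCBI Gene 54167) lies at chr1:60977914-61000320 on the plus strand, Traf1 (NCBI Gene 22029) at chr2:34941750-34961772 on the minus strand, and Cd27 (NCBI Gene 21940) at chr6:125232622-125237027 on the minus strand. In the GENCODE annotation of the same assembly, 414 bp of the 1524 bp of Tnfrsf18 exons overlap an antisense gene, Gm16008. The strand setting of the counting is not stated, so the Tnfrsf18 counts are uncertain to that extent.

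The promoter windows of Tnfrsf4, Tnfrsf9 and Tnfrsf18 are shown because the first pair carried the clearest differences between groups and Tnfrsf18, beside Tnfrsf4 on the chromosome, had a difference of the other sign. They come from RefSeq (GRCm38.p6, which is mm10), run from 250 bases before to 50 bases after the start site, and are all on the plus strand. RefSeq windows matched 6 of the 7 genes, and Tnfrsf9 has a pair of them. Capitals mark matches, on either strand, to the NF-kB consensus and to the AP-1 motif TGANTCA.
Tnfrsf4, chr4:156013445-156013744: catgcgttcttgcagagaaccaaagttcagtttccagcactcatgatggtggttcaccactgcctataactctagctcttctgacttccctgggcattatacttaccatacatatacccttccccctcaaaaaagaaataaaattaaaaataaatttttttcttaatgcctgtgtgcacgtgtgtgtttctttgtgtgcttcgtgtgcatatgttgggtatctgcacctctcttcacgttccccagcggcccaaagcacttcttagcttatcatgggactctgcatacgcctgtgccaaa
Tnfrsf9, upstream start, chr4:150919905-150920204: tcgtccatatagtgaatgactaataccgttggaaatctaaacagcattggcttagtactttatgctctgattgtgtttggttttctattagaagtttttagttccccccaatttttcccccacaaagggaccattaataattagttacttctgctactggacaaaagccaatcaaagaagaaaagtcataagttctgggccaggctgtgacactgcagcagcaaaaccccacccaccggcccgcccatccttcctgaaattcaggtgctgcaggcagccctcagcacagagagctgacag
Tnfrsf9, downstream start, chr4:150927749-150928048: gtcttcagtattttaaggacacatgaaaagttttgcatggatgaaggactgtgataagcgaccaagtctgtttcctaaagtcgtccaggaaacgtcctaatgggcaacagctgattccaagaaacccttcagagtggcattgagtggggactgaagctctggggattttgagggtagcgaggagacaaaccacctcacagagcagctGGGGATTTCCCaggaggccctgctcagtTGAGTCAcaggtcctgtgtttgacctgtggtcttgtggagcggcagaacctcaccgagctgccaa
Tnfrsf18, chr4:156026072-156026371: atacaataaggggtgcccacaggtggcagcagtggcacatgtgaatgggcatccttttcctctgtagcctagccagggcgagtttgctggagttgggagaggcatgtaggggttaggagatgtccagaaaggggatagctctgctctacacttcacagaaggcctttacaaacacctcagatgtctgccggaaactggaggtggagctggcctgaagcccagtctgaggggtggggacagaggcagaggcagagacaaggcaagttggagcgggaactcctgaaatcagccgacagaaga

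Only the downstream Tnfrsf9 window, among the 7 windows of these genes, matched the NF-kB consensus, with overlapping matches on both strands that begin at positions -43 and -42 relative to the start. The same window matched the AP-1 motif at position -15. Of the 11819 windows of tested genes, 5.2% hold an NF-kB match and 4.71% an AP-1 match. None of the 7 windows holds TATAAA, which 6.68% of the windows do. The short NFAT core GGAAA was present in the windows of Tnfrsf4, Tnfrsf9, Tnfrsf18, Cd27 and Traf1, as in 58.8% of all those windows. A match is a description of the letters, and the counts per gene do not tell the Tnfrsf9 starts apart.

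The libraries held 16978736 to 26980697 counts in the CCL19 group and 18203667 to 27429898 in the no-CCL19 group. Levels are given as CPM, counts scaled to a common library total, after TMM scaling, which adjusts for library size and composition. By a chi-square on raw counts, which grows with library depth, CCL19 replicate 3 and no-CCL19 replicate 3 were the nearest pair (5.36 a degree of freedom). CCL19 replicate 3 had 12.2 and 17.7 against the other libraries of its group. By the Pearson correlation of log2 CPM the replicate 3 pair (0.99279) was not the nearest. No-CCL19 replicates 1 and 2 were (0.99354). CCL19 replicate 3 had 0.99247 and 0.99011 with the other libraries of its group. Results were therefore also computed without each library. The T cell label was borne out by the markers, with Cd4 at 570 ± 25.6 and 634 ± 52.5 CPM and Cd3e at 334 ± 16.1 and 342 ± 9.70 CPM with and without CCL19 (mean ± SD, n = 3 each). Regulatory T cell markers were detected. The sum of the 9 genes on that list was 188 to 197 CPM with CCL19 and 191 to 196 CPM without. Capg was the largest part of this sum, at 64.4 to 72.3 CPM with CCL19 and 67.6 to 71.0 CPM without. The defining gene Foxp3 lay at 9.93 to 10.9 CPM with CCL19 and at 9.97 to 10.8 CPM without. The summed levels of 7 B cell markers were 16.7 to 23.4 CPM with CCL19 and 21.4 to 25.7 CPM without. With and without CCL19, those of 9 myeloid and dendritic markers were 17.1 to 21.0 and 16.0 to 25.05 CPM, those of 6 natural killer markers 22.6 to 26.0 and 23.6 to 24.5 CPM, and those of Cd8a and Cd8b1 12.4 to 17.2 and 14.6 to 14.98 CPM. No listed marker was at 0 in all libraries. In such bulk samples, fewer cells of a type and less RNA per cell cannot be told apart.

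With CCL19, the mRNAs of OX40 and CD137 stood higher in all 3 libraries than in any library without it. Their fold changes between the groups were 1.19 and 1.26. TNFR2 had a difference of like size to OX40 with overlapping groups. ICOS, also without overlap, and CD27 had smaller positive differences, and TRAF1 the smallest. GITR was the single gene with a negative difference, without overlap. DESeq2 called 2 of the 7 genes higher (28.6%) at an adjusted p under 0.05 and 0 lower, where it called 6.55% of 9613 genes higher and 5.6% lower. edgeR's quasi-likelihood test, the main test, called 0 of the 7 at an adjusted p under 0.05, as it called 0% of the 11666 genes tested, and limma-voom also called 0. At an unadjusted edgeR p under 0.05, 3 of the 7 were higher, against 14.5% of all tested genes, and 0 were lower, against 13% (27.5% in either direction). Because the 7 genes were chosen with earlier results of these data known, a share above that of all genes is no independent support. The authors' deposited table of changed genes lists Tnfrsf4 and Tnfrsf9 as higher with CCL19 and does not list the other 5. Its 1168 genes are the 1168 that DESeq2 called here, so it is not a separate test.

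**Figure D1:**
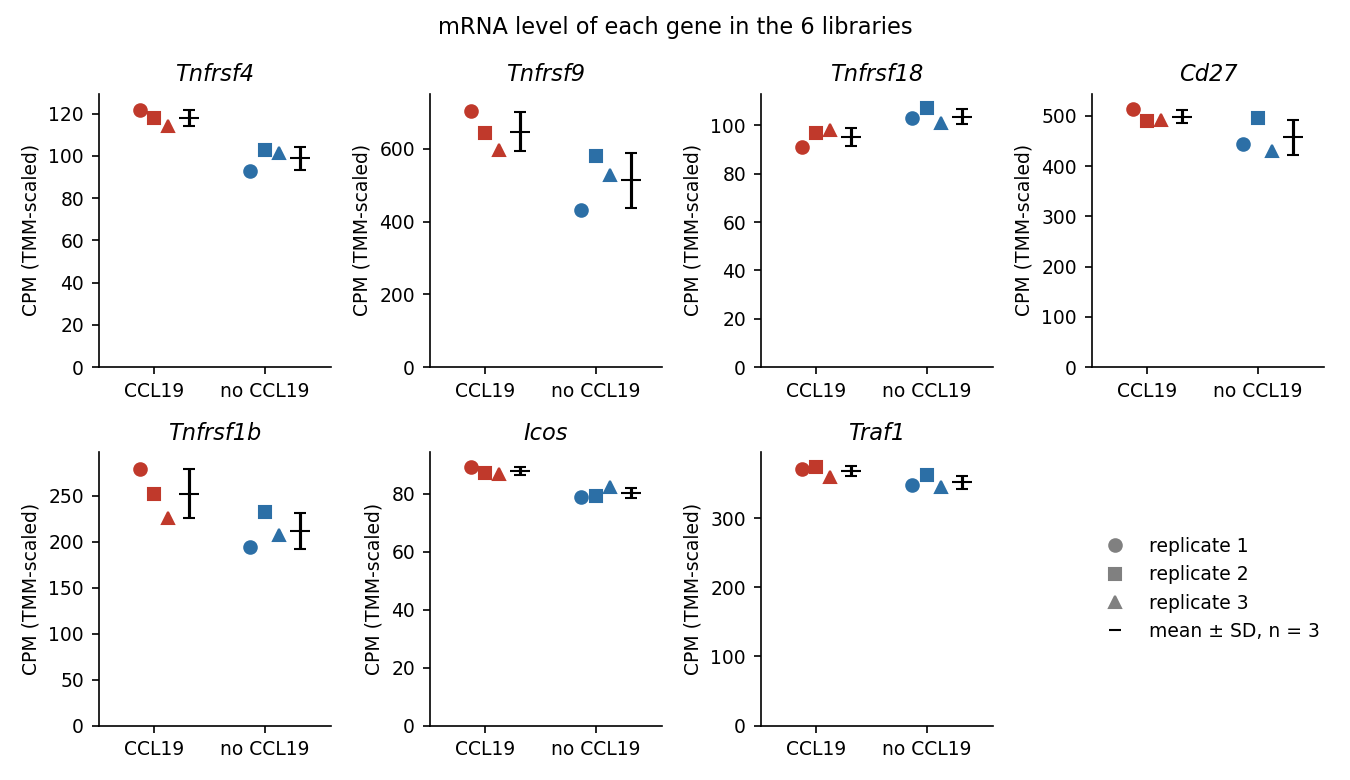
TMM-scaled CPM (vertical axes, from 0) of the 7 genes in the 3 CCL19 libraries (left) and the 3 no-CCL19 libraries (right), with one symbol per replicate and the mean ± SD in black. The groups do not overlap for Tnfrsf4, Tnfrsf9 and Icos, which are higher with CCL19, and for Tnfrsf18, which is lower, by small margins against the level of each gene.

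Tnfrsf4 encodes OX40, the receptor for OX40 ligand that prolongs helper T cell responses. Its mRNA stood at 122, 118 and 114 CPM in CCL19 replicates 1 to 3, against 92.6, 103 and 102 CPM in no-CCL19 replicates 1 to 3. Every CCL19 library was above every no-CCL19 library, and no-CCL19 replicate 1 was the lowest of the 6. The log2 fold change was 0.25 ± 0.07 (SE; 95% interval 0.10 to 0.41), with an edgeR adjusted p of 0.0605 and a DESeq2 adjusted p of 0.0269. Over the 16 alternative settings and DESeq2 without each library in turn, together called the alternatives here, the adjusted p of Tnfrsf4 ran between 0.0247 and 0.259 and the log2 fold change between 0.21 and 0.34.

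Tnfrsf9 encodes CD137, a receptor that increases on T cells after activation. It had the most counts of the 7 genes over all libraries, between 9715 and 17119 per library. In no-CCL19 replicate 1, however, Cd27 had more (10761 against 10423). Tnfrsf9 mRNA stood at 703, 643 and 598 CPM in the CCL19 libraries, against 431, 582 and 527 CPM in the no-CCL19 libraries. The groups did not overlap, but the gap between CCL19 replicate 3 and no-CCL19 replicate 2 was narrow, and the spread within a group was wide, with a coefficient of variation of 8.15% with CCL19 and 14.9% without. Counting error alone would give about 0.764% to 1.01% at these counts. The log2 fold change was 0.34 ± 0.11 (SE; 95% interval 0.11 to 0.56; edgeR adjusted p = 0.0754, DESeq2 adjusted p = 0.022), and the adjusted p ran from 0.00783 to 0.317 over the alternatives.

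Tnfrsf18 encodes GITR, a costimulatory receptor found at high levels on regulatory T cells. GITR mRNA was at 91.0, 96.9 and 98.1 CPM with CCL19, against 103, 107 and 101 CPM without. All CCL19 libraries lay below all no-CCL19 libraries, by a margin of a few CPM between CCL19 replicate 3 and no-CCL19 replicate 3. The log2 fold change was -0.12 ± 0.07 (SE; 95% interval -0.27 to 0.03), which neither edgeR (adjusted p = 0.28) nor DESeq2 (adjusted p = 0.318) called. Its log2 fold change was -0.03 once an offset for transcript GC content and length was added (edgeR adjusted p = 0.804), and over all alternatives the adjusted p ran from 0.215 to 0.86.

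The ratio of the neighbours Tnfrsf4 and Tnfrsf18 does not depend on how libraries are scaled. It was 1.34, 1.22 and 1.17 in the CCL19 libraries, against 0.899, 0.958 and 1.005 in the no-CCL19 libraries, and the groups did not overlap. Tnfrsf4 had more counts than Tnfrsf18 in every CCL19 library and, narrowly, in no-CCL19 replicate 3. The Tnfrsf18 counts carry the strand uncertainty given above. The ratio of Tnfrsf9 to Tnfrsf18 was 7.73, 6.63 and 6.09 with CCL19, against 4.18, 5.43 and 5.22 without. This pair of ratios was chosen after the values were seen, and the difference between the genes' fold changes was not tested.

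Cd27 encodes a receptor of naive and central memory T cells whose ligand is CD70. Cd27 mRNA was at 514, 489 and 492 CPM with CCL19, against 445, 497 and 431 CPM without. The groups overlapped, because no-CCL19 replicate 2 lay above CCL19 replicates 2 and 3. Cd27 had a log2 fold change of 0.12 ± 0.08 (SE; 95% interval -0.05 to 0.30; edgeR adjusted p = 0.344, DESeq2 adjusted p = 0.281). It was 0.18 without no-CCL19 replicate 2 and 0.08 without no-CCL19 replicate 3, and the adjusted p ran from 0.11 to 0.631 over the alternatives.

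Tnfrsf1b encodes TNFR2, the TNF receptor without a death domain, which is prominent on activated and regulatory T cells. Its mRNA stood at 279, 252 and 226 CPM with CCL19, against 195, 233 and 208 CPM without. CCL19 replicate 3 lay below no-CCL19 replicate 2, so the groups overlapped, although CCL19 replicates 1 and 2 were above all of the no-CCL19 libraries. The log2 fold change was 0.25 ± 0.09 (SE; 95% interval 0.06 to 0.45), the same size as for Tnfrsf4 with a wider error, and it was not called (edgeR adjusted p = 0.104, DESeq2 adjusted p = 0.0622). The call depended on single libraries. Without CCL19 replicate 3 Tnfrsf1b had a log2 fold change of 0.32 (edgeR adjusted p = 0.0358, DESeq2 adjusted p = 0.0111), without no-CCL19 replicate 2 it was also 0.32 (edgeR adjusted p = 0.0811, DESeq2 adjusted p = 0.0278), and over the alternatives the adjusted p ran from 0.0111 to 0.369.

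Icos encodes the costimulatory receptor of follicular helper T cells and effector cells, which binds ICOS ligand. Icos mRNA was at 89.4, 87.2 and 86.9 CPM with CCL19, against 78.9, 79.4 and 82.2 CPM without. The groups did not overlap and the libraries of each group lay close together, with a coefficient of variation of 1.53% with CCL19 and 2.25% without, about what counting error alone gives at its 1485 to 2322 counts (2.08% to 2.6%). The log2 fold change was 0.13 ± 0.07 (SE; 95% interval -0.02 to 0.28), and it was not called (edgeR adjusted p = 0.229, DESeq2 adjusted p = 0.263). The error of the fit draws on the spread of all genes, not on that of Icos alone. Icos had 0.05 under the same offset (edgeR adjusted p = 0.592), and the adjusted p ran from 0.218 to 0.7 over the alternatives.

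Traf1 encodes the TRAF protein that T cells make upon activation and that joins TRAF2 at OX40, CD137 and TNFR2. Its mRNA stood at 370.1, 373 and 359 CPM with CCL19, against 347, 362 and 345 CPM without. The groups overlapped, with no-CCL19 replicate 2 above CCL19 replicate 3. Traf1 had a log2 fold change of 0.06 ± 0.07 (SE; 95% interval -0.09 to 0.22; edgeR adjusted p = 0.604, DESeq2 adjusted p = 0.554). Leaving out 1 library kept it between 0.05 and 0.08, and under the GC and length offset it was 0.13 (edgeR adjusted p = 0.2, the lowest over the alternatives, of which the highest was 0.803).

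**Figure D2:**
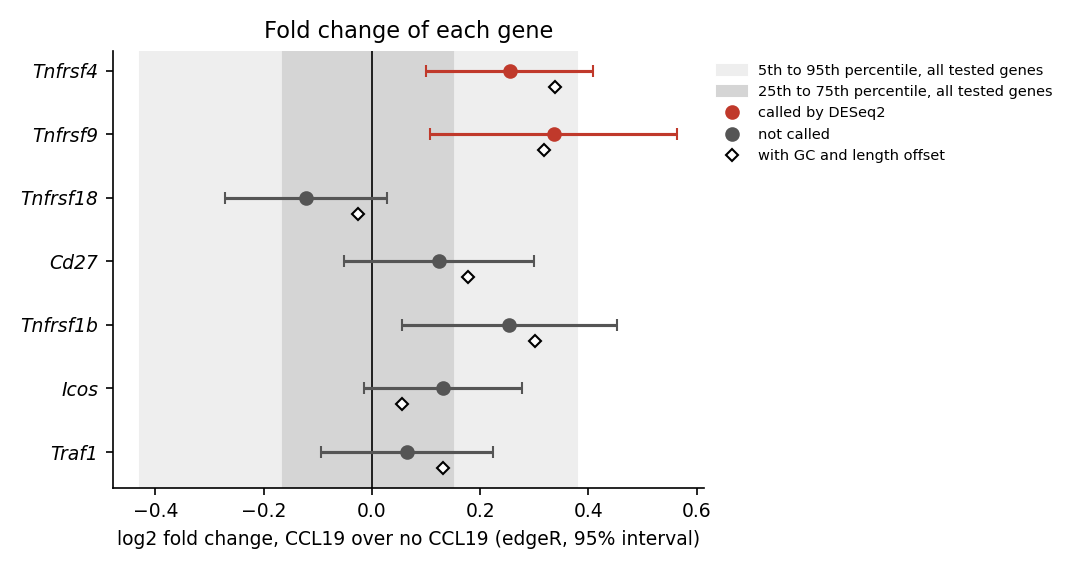
Log2 fold change of each gene, CCL19 over no CCL19, from edgeR with its 95% interval, on bands that hold the middle 50% and 90% of the log2 fold changes of all 11666 tested genes, and with the value after an offset for GC content and length (open diamonds). Tnfrsf4, Tnfrsf9 and Tnfrsf1b lie to the right of the inner band and within the outer one. The offset moves Tnfrsf18, Icos and Tnfrsf9 toward 0, and Tnfrsf4, Tnfrsf1b, Cd27 and Traf1 away from it.

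Among all tested genes, the log2 fold change of Tnfrsf9 lay at percentile 93, those of Tnfrsf4 and Tnfrsf1b at percentiles 87.4 and 87.3, those of Icos and Cd27 at 72.1 and 71, that of Traf1 at 60.6 and that of Tnfrsf18 at 30.6. The median of the 7 genes was 0.13, against 0.00 over all tested genes (25th to 75th percentile -0.16 to 0.15). The choice of the genes with earlier results known limits this comparison too. The 3 genes that were higher without overlap, Tnfrsf4, Tnfrsf9 and Icos, compare with 15.3% of all tested genes, and the 1 that was lower, Tnfrsf18, with 14.5% (29.8% in either direction). Over all genes, the median fold change differed between classes of GC content. Transcripts of Tnfrsf4 (54.9% GC), Tnfrsf1b (53.7%) and Traf1 (53.9%) fell in a GC class, the eighth of 10, whose median log2 fold change was -0.07. Tnfrsf18 (55.7%) fell in the ninth, with a median of -0.11, and Icos (43.0%) in the second, with a median of 0.08. Tnfrsf9 (47.8%) fell in class 5, with a median of 0.03, and Cd27 (53.3%) in class 7, with a median of -0.03. The part of GC content in the values of these genes was not tested. Under the GC and length offset the log2 fold change was 0.34 for Tnfrsf4 and 0.32 for Tnfrsf9 (edgeR adjusted p = 0.0957 and 0.114). It was 0.30 for Tnfrsf1b and 0.18 for Cd27 (edgeR adjusted p = 0.0981 and 0.15).

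The DESeq2 calls of Tnfrsf4 and Tnfrsf9 depended on which libraries were in the fit. Without CCL19 replicate 1 the DESeq2 adjusted p was 0.156 for Tnfrsf4 and 0.161 for Tnfrsf9. Without CCL19 replicate 2 it was 0.143 and 0.109, and without no-CCL19 replicate 1 it was 0.14 and 0.126. Both genes stayed called by DESeq2 without CCL19 replicate 3 (adjusted p of 0.0247 and 0.00853), without no-CCL19 replicate 2 (0.0422 and 0.00783) and without no-CCL19 replicate 3 (0.0422 and 0.0328). The number of genes DESeq2 called over the whole table moved in the same way, to 20 higher and 35 lower without CCL19 replicate 1, to 56 higher and 67 lower without CCL19 replicate 2 and to 60 higher and 45 lower without no-CCL19 replicate 1, against 630 and 538 with all libraries. For Tnfrsf9 the log2 fold change dropped to 0.22 without no-CCL19 replicate 1, its lowest library, and was 0.43 without no-CCL19 replicate 2.

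**Figure D3:**
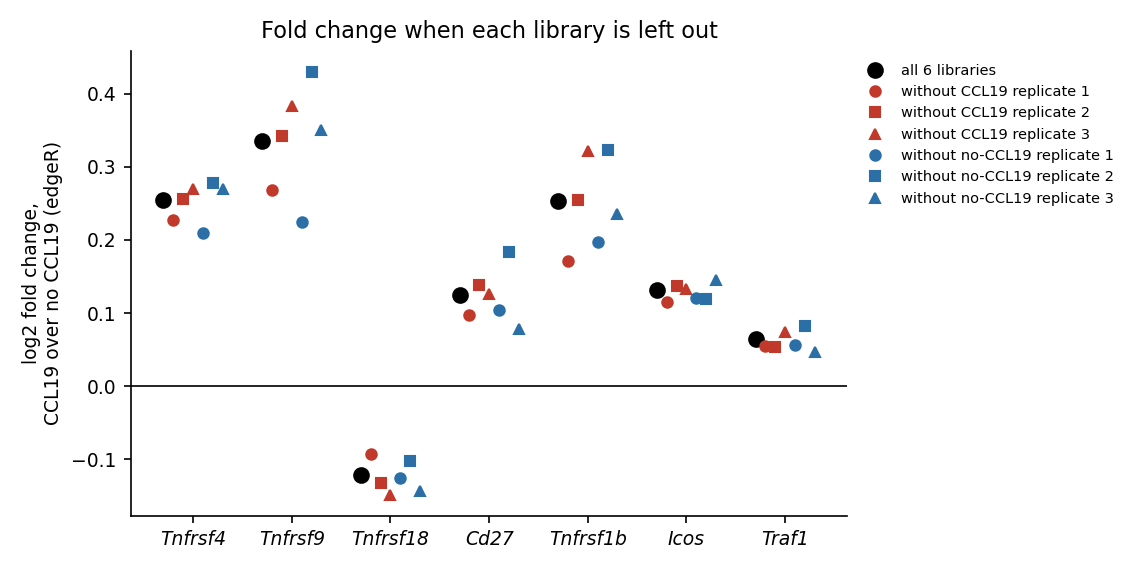
Log2 fold change of each gene, CCL19 over no CCL19, from edgeR with all 6 libraries (black) and with each library left out (red for a CCL19 library, blue for a no-CCL19 library, one symbol per replicate). Each gene keeps its sign throughout, and Tnfrsf9 moves the most, between 0.22 and 0.43.

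Divided by the length of their exons, the 7 mRNAs spanned about an order of magnitude. Over the 6 libraries Tnfrsf9 averaged 213 ± 34.6 CPM per kb (SD, n = 6) and Cd27 205 ± 14.0 CPM per kb, with overlapping ranges. Tnfrsf4 (67.8 to 89.3 CPM per kb), Tnfrsf18 (59.7 to 70.2) and Tnfrsf1b (51.0 to 73.1) followed and overlapped each other, and below them Traf1 (39.1 to 42.3) and Icos (23.0 to 26.1) were separate from their neighbours in the order. In the CCL19 libraries Tnfrsf4, at 83.8 to 89.3 CPM per kb, was above Tnfrsf18, at 59.7 to 64.3. In the no-CCL19 libraries the 2 ranges, 67.8 to 75.1 and 66.3 to 70.2 CPM per kb, overlapped. Even Icos, the lowest, lay at percentile 79.6 of the 11602 tested genes with a known length, and Tnfrsf9 at 98.8. The order of the lower genes depends on the length used, because the joined exons of all Traf1 transcripts cover 8819 bp and its coding sequence 1233 bp. Per kb of coding sequence the order was Tnfrsf9, Cd27, Traf1, Tnfrsf1b, Tnfrsf4, Icos and Tnfrsf18.

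The ligands were far apart in level. Tnf and Lta, the ligands of TNFR2 that T cells themselves secrete, averaged 346 ± 27.9 and 181 ± 15.4 CPM per kb with CCL19, against 287 ± 38.6 and 138 ± 16.8 CPM per kb without (SD, n = 3 each). Lta was called higher by DESeq2 (log2 fold change 0.39 ± 0.10; DESeq2 adjusted p = 0.00618, edgeR adjusted p = 0.0505). Tnf had 0.27 ± 0.10 with overlapping groups and was not called (DESeq2 adjusted p = 0.0564, edgeR adjusted p = 0.112).

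The ligands that belong mainly to antigen-presenting cells were low. Tnfsf9, the CD137 ligand, had 7.04 ± 0.649 CPM per kb with CCL19 and 6.06 ± 1.02 without. Icosl, the ICOS ligand, had 1.85 ± 0.146 and 2.19 ± 0.115 CPM per kb with and without CCL19, and Tnfsf4, the OX40 ligand, had 1.63 ± 0.141 and 1.32 ± 0.349 CPM per kb. None of these 3 was called by edgeR (adjusted p = 0.35, 0.21 and 0.378), which called 0 of all tested genes. DESeq2 did not call Tnfsf9 or Icosl either (adjusted p = 0.422 and 0.295) and gave no adjusted p for Tnfsf4. Icosl was lower with CCL19 without overlap, as were 14.5% of all tested genes. Cd70 had 13 counts in all and Tnfsf18, the GITR ligand, had 0 counts in each library, which allows a level of up to 0.177 CPM in the smallest library (3 counts; counting error only).

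**Figure D4:**
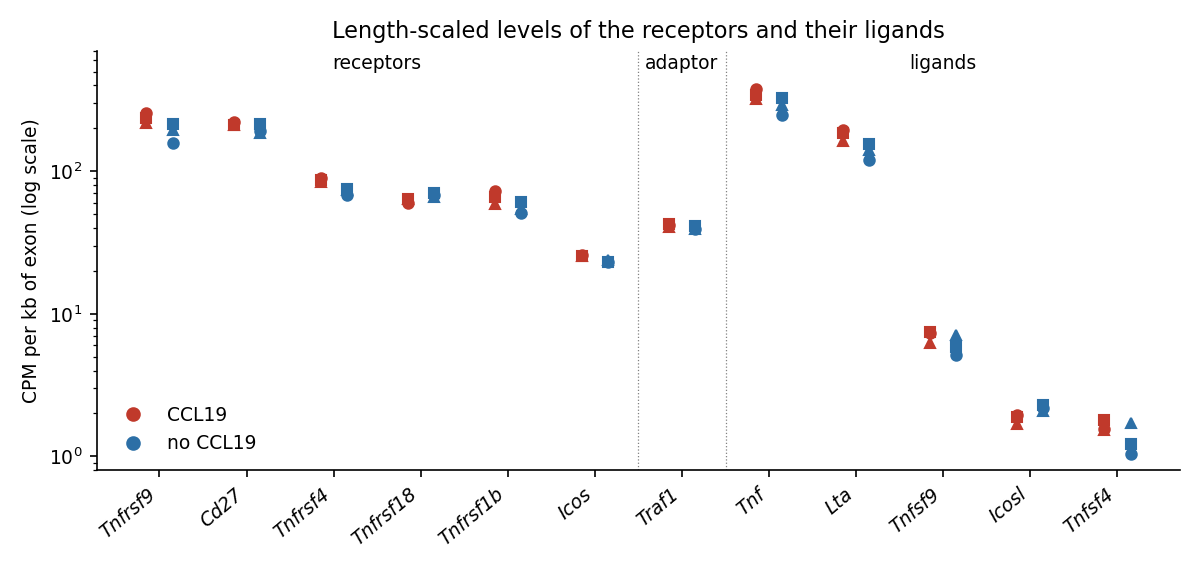
Levels in CPM per kb of exon (log axis) of the 6 receptors, the adaptor Traf1 and their 5 ligands with enough counts, in the 3 CCL19 libraries (red) and the 3 no-CCL19 libraries (blue), with one symbol per replicate. Tnf averages above Tnfrsf9 and Cd27 and Lta below them, and the ligands Tnfsf9, Icosl and Tnfsf4 lie below all of the receptors.

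Genes that act with these receptors, and genes that T cell receptor stimulation induces, were counted from 9 lists of 98 genes in all, 88 of them tested. Of the 81 with a DESeq2 adjusted p, DESeq2 called 9 higher and 6 lower, and edgeR called none at an adjusted p under 0.05. Of the 9 called higher, 5 were on the list of stimulation-induced genes and do not describe partners of the receptors. Over all genes, DESeq2 called 6.55% higher and 5.6% lower, which is the background for each of these lists. Of 15 tested members of the rest of the TNF receptor family, 11 had a DESeq2 adjusted p, and DESeq2 called 0 higher and 1 lower, Tnfrsf25 (DR3, the death-domain receptor for TL1A on T cells), at 70.2 ± 8.26 CPM with CCL19 and 91.0 ± 10.8 without (log2 fold change -0.37 ± 0.10; DESeq2 adjusted p = 0.014, edgeR adjusted p = 0.055). The death receptor Fas had 0.25 ± 0.09, higher without overlap, and Tnfrsf26, whose exons overlap an antisense gene, -0.29 ± 0.12 with overlapping groups, and neither was called (edgeR adjusted p = 0.098 and 0.127). The list median was 0.03, and Tnfrsf8 (CD30), with 45 counts in all, was too low to test.

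Signalling genes downstream of the receptors had mixed signs. Of 11 TRAF and cIAP genes, 10 with a DESeq2 adjusted p, DESeq2 called 0, and the median log2 fold change was 0.02. At an unadjusted edgeR p under 0.05 there were 2 of the 11, against 27.5% of all tested genes. Of all tested genes, 29.8% did not overlap between the groups, in either direction. The smallest p belonged to Traf5, which binds OX40 and CD27 (-0.24 ± 0.09, lower without overlap), Traf6 (0.19 ± 0.07, higher without overlap) and Tank (0.17 ± 0.08, higher without overlap), with edgeR adjusted p of 0.111, 0.116 and 0.186. Of 14 NF-kB kinases, adaptors and subunits DESeq2 called 2 higher, the subunits Nfkb1 (1541 ± 193 CPM with CCL19 and 1208 ± 125 without; log2 fold change 0.35 ± 0.11, DESeq2 adjusted p = 0.0142) and Rel (252 ± 34.3 and 199 ± 25.9 CPM with and without CCL19; 0.34 ± 0.11, DESeq2 adjusted p = 0.029), and 0 lower. Tradd, the adaptor of death-domain receptors, had -0.30 ± 0.10 (DESeq2 adjusted p = 0.078). Of 9 feedback inhibitors DESeq2 called 1 lower, Tnip1, a partner of the deubiquitinase A20 (-0.25 ± 0.08, DESeq2 adjusted p = 0.048), and 0 higher, and Nfkbib and Tnip2, next by p, had 0.12 and 0.12.

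Icos and Tnfrsf4 mRNAs are known to be destabilised by roquin and regnase proteins. Their genes Rc3h1, Rc3h2 and Zc3h12a, named for that role, had log2 fold changes of 0.06, 0.11 and -0.02, and none was called (DESeq2 adjusted p = 0.602, 0.431 and 0.88). Of the 8 genes on this list of mRNA regulators, DESeq2 called 1 lower, Zfp36l2, an AU-rich element binding protein, at 308 ± 4.49 CPM with CCL19 and 414 ± 63.0 without (-0.43 ± 0.10, DESeq2 adjusted p = 0.00249), and 0 higher. Next by p were Malt1, the protease that cleaves regnase and roquin (0.25 ± 0.09, DESeq2 adjusted p = 0.0513), and Zc3h12d (-0.16 ± 0.07, DESeq2 adjusted p = 0.17).

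Among the other CD28-family receptors DESeq2 called Btla higher and none lower of 4. Btla, an inhibitory receptor that binds the TNF receptor HVEM, stood at 161 ± 14.5 CPM with CCL19 and 123 ± 10.4 without (0.39 ± 0.09, DESeq2 adjusted p = 0.00355, edgeR adjusted p = 0.0505). Pdcd1 had 0.27 ± 0.09 (DESeq2 adjusted p = 0.0521) and Ctla4, the inhibitory counterpart of CD28, -0.18 ± 0.14 (DESeq2 adjusted p = 0.486), both with overlapping groups. Cd28 itself had -0.02 ± 0.09 (DESeq2 adjusted p = 0.916). Of 12 genes listed for PI3K signalling by ICOS and CD28, DESeq2 called 0 higher and 3 lower. These were the regulatory subunit Pik3r2 (-0.44 ± 0.10, DESeq2 adjusted p = 0.0152), the inhibitor Pik3ip1 (-0.42 ± 0.11, DESeq2 adjusted p = 0.00936) and the catalytic subunit Pik3cd (-0.33 ± 0.09, DESeq2 adjusted p = 0.00644). The list median was -0.01. Not all of the 12 are PI3K pathway genes, because the list holds Tbk1 and Pdk1, in mouse a pyruvate dehydrogenase kinase. Neither was called (DESeq2 adjusted p = 0.428 and 0.1835). For scale, of 10 tested genes that T cell receptor stimulation induces, 9 with a DESeq2 adjusted p, DESeq2 called 5 higher and 0 lower. Their median log2 fold change was 0.44, which was larger than that of any of the 7 genes described here. This list was chosen with earlier results of these data known, so it is not an independent scale. The smallest p on that list belonged to Il2ra, Cd69 and Irf4, with log2 fold changes of 0.55 ± 0.12, 0.44 ± 0.11 and 0.48 ± 0.12. Exons of Tnfsf9, Traf5, Nfkbib, Zfp36l2, Pik3r2 and Pik3ip1, and of the markers Foxp3, Cd3e and Lef1, overlap a transcript on the other strand in GENCODE, so these counts carry the same strand uncertainty as those of Tnfrsf18 and Tnfrsf26.

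**Figure D5:**
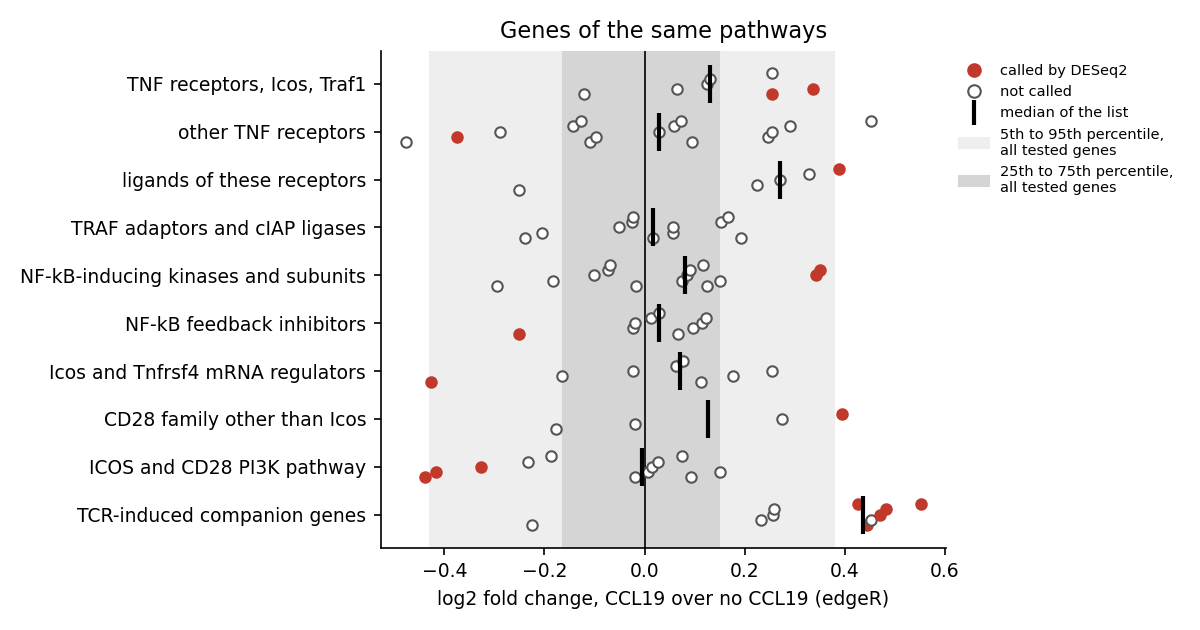
Log2 fold change, CCL19 over no CCL19 (edgeR), of the 7 genes (top row) and of the tested members of 9 lists of related genes, with filled points for DESeq2 calls, a bar at each median, and bands for the middle 50% and 90% of all tested genes. The medians of most lists lie within the inner band, and those of the ligands and of the stimulation-induced genes, 0.27 and 0.44, lie to its right.

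The markers of other T cell states differed in part between the groups. As background, DESeq2 called 6.55% of all genes higher and 5.6% lower. At an unadjusted edgeR p under 0.05, 14.5% of all tested genes were higher and 13% lower. On the naive T cell list DESeq2 called 3 of 9 genes lower, Tcf7, Ccr7 and Lef1, and 0 higher, and the summed level was 4413 to 5210 CPM with CCL19 and 5144 to 5975 CPM without. The list and its sum also hold Cd3d, Cd3e, Cd3g, Cd4 and Lck, which mark T cells and not the naive state alone. Of the 9 genes for memory or effector cells, only 4 had a DESeq2 adjusted p, and DESeq2 called Itgb1 higher and 0 lower. Their sum was 157 to 171 CPM with CCL19 and 136 to 158 CPM without, and most of it was Itgb1, at 106 ± 5.75 CPM with CCL19 and 88.4 ± 8.14 CPM without. At an unadjusted edgeR p under 0.05, 2 genes on this list were higher, Itgb1 and Cxcr3 (log2 fold change 0.36 ± 0.13), and 2 were lower, S100a6 (-0.93 ± 0.29, without overlap) and Ahnak (-0.27 ± 0.11). The part of either in the values of Tnfrsf4 and Tnfrsf9 was not tested. Of the 9 regulatory T cell markers, 8 with a DESeq2 adjusted p, edgeR, DESeq2 and limma-voom called 0, and 0 had an unadjusted edgeR p under 0.05. Without overlap, 1 was higher, Nrp1, and 0 were lower, against 15.3% and 14.5% of all tested genes.

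The likeness of the genes' profiles over the 6 libraries was measured as the root-mean-square (RMS) difference of log2 CPM, each gene centred on its own mean. Among 8524 other genes, Cct5 and Psmc2 were nearest to Tnfrsf4 (RMS difference 0.011 and 0.018), Urb2 and Rcl1 to Tnfrsf9 (0.024 and 0.026), and Usp54 and Eftud2 to Tnfrsf1b (0.015 and 0.016). Nf1 and Klhl12 were nearest to Icos (0.008 and 0.014), Uqcrfs1 and Ccdc134 to Cd27 (0.017 and 0.018), Ppp1r15a and Ncoa5 to Traf1 (0.009 and 0.011), and Meis3 and Os9 to Tnfrsf18 (0.008 and 0.018). Within the group, Icos and Traf1 were the closest pair (0.051), Tnfrsf9 was closest to Tnfrsf1b (0.08) and Tnfrsf9 and Tnfrsf18 were farthest apart (0.28). For each of the 7, between 248 and 2400 other genes were nearer than its nearest fellow member.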

How the data were processed

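The members and lists were chosen with earlier results of these data known. The submitters' processing notes name STAR 2.5, featureCounts 1.5.0-p1, DESeq2 1.28.1 and the build mm10. The authors deposited raw counts per gene, not normalized, and a list of changed genes with their direction. The sources used here state neither strand setting nor annotation release. Libraries were made with a TruSeq kit, per the labels.

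All 24470 genes entered 1 fit of the 3 CCL19 against the 3 no-CCL19 libraries in edgeR 4.0.16 (R 4.3.3; filterByExpr, TMM, quasi-likelihood test, Benjamini-Hochberg adjustment, threshold 0.05). DESeq2 1.42.0 and limma 3.58.1 (voom) were alternatives. SE and intervals come from the edgeR fit. GC content of each gene's longest transcript and lengths came from GENCODE M21, with values for 99.5% of tested genes. Offsets used splines of 5 degrees of freedom. Log2 CPM used a prior count of 2. Named companion genes are the up to 3 of smallest edgeR p per list and every ligand. Cd28, Rc3h1, Rc3h2, Zc3h12a and the marker genes fall outside that rule and were named after their values were seen. Genes nearest in profile were sought among those averaging 3 or more in log2 CPM with no predicted-gene symbol. Replicate numbers were not treated as pairs. The biological coefficient of variation was 8.72%. Figures used matplotlib 3.10.9.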

Additional observations from a re-analysis of the deposited data

How the results depend on the processing

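Over 16 alternatives each of the 7 genes kept the sign of its log2 fold change, and 104 of 112 values stayed on the same side of the threshold. With all libraries edgeR called 0 genes, at a lowest adjusted p of 0.0505. DESeq2 called 630 higher and 538 lower (Tnfrsf4 0.26, Tnfrsf9 0.34). edgeR called 803 and 797 without a filter on low counts (Tnfrsf4 0.25, Tnfrsf9 0.33) and 267 and 262 with a robust prior. Without both replicate 3 libraries, a setting chosen after seeing the data, edgeR called 817 and 842 (Tnfrsf4 0.29). Leaving out 1 library gave 0 to 772 higher and 0 to 827 lower, with log2 fold changes of 0.21 to 0.28 for Tnfrsf4, 0.22 to 0.43 for Tnfrsf9 and 0.17 to 0.32 for Tnfrsf1b. edgeR called these 3 without CCL19 replicate 3. DESeq2 without each library was also added after seeing the data. The cause was not tested. Per kb of coding sequence the levels were 133 (Tnfrsf4), 756 (Tnfrsf9), 106 (Tnfrsf18), 124 (Icos), 637 (Cd27), 163 (Tnfrsf1b) and 292 CPM (Traf1). A replicate block in edgeR called 0 genes, with Tnfrsf4 at 0.26 (adjusted p = 0.162) and Tnfrsf9 at 0.34 (adjusted p = 0.174). Libraries of the same number did not deviate together (correlations of -0.164, 0.0814 and -0.0207), and not every library correlated best with its own number. With 3 libraries a group, differences of the size of Icos or Tnfrsf18 were within the error of the fit.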
